A study of Mus musculus with 2 samples.

Results

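The 42 genes described here encode proteins that license origins, run the replication fork, supply nucleotides and histones, and time the entry into S phase, and they are widely used to place single cells in S phase. They were taken as listed genes, each found in the deposited gene list, and were followed in single-cell RNA sequencing of organoids of the mouse small intestine, cultured epithelium that keeps crypt and villus cell types. The gene list holds 31053 genes in all. The 2 labelled samples were a control and a melatonin-treated culture, each made on culture day 3 from single cells of 3 organoid lines pooled before capture, so organoid lines cannot be told apart. Genotype, strain and melatonin dose were not used here. The title of the study places the question in repair of the intestinal epithelium with melatonin and prostaglandin E2.

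The files of the 2 samples were identical, 3 of 3, and hold 1 matrix whose barcodes end in 1 (set 1) or in 2 (set 2). Nothing in the labels ties an ending to a treatment. Control and melatonin were therefore not compared, the ratios of set 2 over set 1 have an arbitrary direction, and no replicate stands behind either set. The values are descriptions without tests. Intervals are 95% intervals, exact Poisson for counts of unique molecular identifiers (UMIs, one per captured RNA molecule) and Clopper-Pearson for shares of cells, and they cover counting error only.

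A barcode counted as a cell when it held 500 or more genes and 1000 or more UMIs, of which no more than 20% were mitochondrial. This kept 2300 cells of set 1 and 1766 of set 2, at medians of 29872 and 28759 UMIs per cell. The matrix has 29 barcode sequences that occur with both endings, and 0 of them are shared by kept cells of both sets. The summed epithelial markers had a median of 31.1 UMIs per 10000 UMIs of a cell, while 3955 of the 4066 cells had 0 UMIs of the immune markers and 4047 had 0 of the mesenchymal markers. All 42 genes were detected, with 194173 UMIs together, or 0.172% of all UMIs, and 87 cells had none of them.

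Before S phase, the origin recognition complex, Cdc6 and Cdt1 load the helicase core Mcm2 to Mcm7 onto DNA, which is called licensing. Cyclin E with its kinase then starts S phase, when Mcm10, Cdc45 and the GINS complex switch the helicase on and polymerases, clamp and clamp loader follow. E2F factors drive many of these genes late in G1. In the intestine, dividing cells are the stem and transit-amplifying cells of the crypt, and differentiated enterocytes and enteroendocrine cells no longer replicate DNA.

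Because E2F factors act at the start of these genes, the windows from 250 bases before to 50 bases after each gene's start were read from RefSeq (mouse build GRCm38.p6; the authors' build is not given in the sources used here). A window was at hand for 31 of the 42 genes. A window was searched on both strands for the E2F words TTTGGCGC, TTTCCCGC, TTTGCCGC and TTTCGCGC and for CCAAT, the NF-Y box, whose matches can lie apart from or next to the E2F words. Of the 31 genes, 14 (45.2%) held an E2F word, against 2.6% of 27025 genes with a window. Of the 37 other replication genes with a window, 12 (32.4%) held one, and of 16 genes of G2 and mitosis, 1 (6.25%). CCAAT was present in 21 of the 31 (67.7%), against 41.1% of all genes and 87.5% of the G2 and mitosis genes. The word TTTGAA, part of an element of genes used in G2 and mitosis, was present in 5 of the 31 (16.1%), in 20.2% of all genes and in 68.8% of the G2 and mitosis genes. A match is a description of letters and not evidence of a bound site. The windows of 4 genes are shown because the results below turn on these genes: Mcm6 held the most E2F words, 3, of which a pair overlap, Cdc6 is a licensing factor with 1, Pclaf held 1 E2F word and 2 CCAAT boxes, and Cdca7 held 1 E2F word. Capitals mark the E2F and CCAAT matches, and each line runs 5′ to 3′ on the gene's own strand.
Mcm6, chr1:128359656-128359955, minus strand: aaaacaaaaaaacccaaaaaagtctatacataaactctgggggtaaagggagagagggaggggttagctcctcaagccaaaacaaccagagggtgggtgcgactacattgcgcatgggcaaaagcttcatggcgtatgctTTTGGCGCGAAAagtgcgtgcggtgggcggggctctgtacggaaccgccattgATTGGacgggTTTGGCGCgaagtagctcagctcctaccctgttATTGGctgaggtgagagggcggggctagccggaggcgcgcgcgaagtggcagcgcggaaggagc
Cdc6, chr11:98907901-98908200, plus strand: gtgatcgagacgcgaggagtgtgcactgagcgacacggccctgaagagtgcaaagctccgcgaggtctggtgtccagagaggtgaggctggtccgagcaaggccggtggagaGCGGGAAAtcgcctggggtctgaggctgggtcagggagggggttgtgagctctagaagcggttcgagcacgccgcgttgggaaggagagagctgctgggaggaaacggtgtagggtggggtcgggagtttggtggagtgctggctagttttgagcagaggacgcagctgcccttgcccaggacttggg
Pclaf, chr9:65890073-65890372, plus strand: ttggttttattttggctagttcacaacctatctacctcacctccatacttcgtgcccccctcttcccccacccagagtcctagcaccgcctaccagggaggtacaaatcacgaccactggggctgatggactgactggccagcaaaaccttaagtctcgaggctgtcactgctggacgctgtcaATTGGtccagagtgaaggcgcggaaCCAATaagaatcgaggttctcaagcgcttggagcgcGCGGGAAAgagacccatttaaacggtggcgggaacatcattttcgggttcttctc
Cdca7, chr2:72475969-72476268, plus strand: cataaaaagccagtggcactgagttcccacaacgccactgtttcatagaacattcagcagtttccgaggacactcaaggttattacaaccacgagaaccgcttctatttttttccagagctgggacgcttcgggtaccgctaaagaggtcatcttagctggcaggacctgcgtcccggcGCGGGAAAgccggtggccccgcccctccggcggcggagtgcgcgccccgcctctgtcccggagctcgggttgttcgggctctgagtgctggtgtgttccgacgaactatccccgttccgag

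By the mean and median of each class, DNA replication genes were highest in cells below the limits set on lineage markers. For each cell, the UMIs of the 42 genes were summed and scaled to 10000 UMIs of that cell. Cells were then sorted by marker sums that hold none of the 42 genes: at least 50 per 10000 for enteroendocrine markers such as Chga, at least 100 for enterocyte markers such as Apoa4 and Fabp1, at least 30 for goblet or 60 for Paneth markers, and at least 10 for the revival markers such as Clu and Anxa1. Cells that passed none of these limits are called ungated. They still carry lineage markers at lower levels, with median enterocyte sums of 16.2 per 10000 in set 1 and 7.92 in set 2. Ungated cells held 90.5% of the UMIs of the 42 genes and 78.7% of all UMIs. For 41 of the 42 genes the share lay between 83.0% and 94.3%, and for Pola1 it was 82.9%, so the lowest genes were close to the share of all UMIs. A limit on a sum marks a range and not a cell type. Close to the limit, from 0.8 times it to as far above on a ratio scale, lay 38 cells for the enteroendocrine sum, 59 for the enterocyte sum and 62 for the revival sum, of 4066. For the goblet sum 69 did, for the Paneth sum 58, and for the G2/M sum used below 207.

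Ungated cells had a mean sum of 18.5 ± 11.4 (SD over 1820 cells) in set 1 and 20.8 ± 14.4 (1216 cells) in set 2, with medians of 15.7 and 16.3. Enteroendocrine-gated cells had 5.02 ± 2.84 (227 cells) and 4.43 ± 2.86 (234 cells). Enterocyte-gated cells had medians of 3.43 in set 1 (117 cells) and 2.87 in set 2 (172 cells). The means of the enterocyte-gated cells were higher than their medians, 7.22 ± 9.83 and 4.40 ± 6.16, and their highest cells reached 50.3 and 56.6. The 52 and 56 goblet- or Paneth-gated cells lay between, with medians of 10.9 and 12.8. Revival-gated cells were few, 24 and 34, and their medians were 3.75 and 7.85. The 60 and 54 cells that passed several gates were held apart, with medians of 3.34 and 3.42. Doublets were not called by a program, and cells with markers of several lineages stand apart in this way only.

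**Figure D1:**
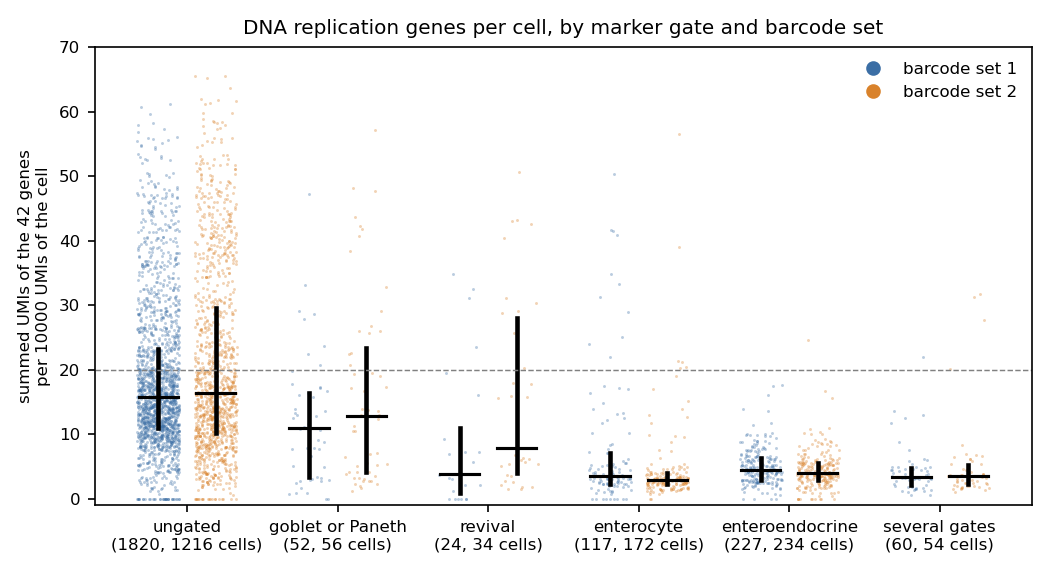
Summed UMIs of the 42 DNA replication genes per 10000 UMIs (vertical axis) for every kept cell, by marker gate and barcode set. Each dot is a cell, horizontal bars are medians, thick vertical bars span the quartiles, and the dashed line marks 20 per 10000. Ungated cells reach 65.5, while the upper quartile of enteroendocrine-gated cells lies at 6.35 in set 1 and 5.53 in set 2.

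A sum of 20 per 10000 or more was reached by 602 of 2300 cells in set 1 (26.2%, interval 24.4 to 28.0) and by 518 of 1766 in set 2 (29.3%, 27.2 to 31.5). Among ungated cells these shares were 31.8% and 39.4%. In enteroendocrine-gated cells 0 of 227 reached it in set 1, which allows up to 1.61% by the exact interval, and 1 of 234 in set 2. When each cell was thinned to 2000 UMIs and at least 4 UMIs of the genes were asked for, which left out 265 and 77 shallower cells, the shares over all cells were 35.7% (33.6 to 37.9) and 35.5% (33.2 to 37.9), so no order of the sets is read from the share. In ungated cells the thinned shares were 43.8% and 47.9%. The count of ungated cells within 2 of the limit of 20 was 330 of 3036, so the split is not sharp.

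Along the enterocyte marker sum the replication genes were lower beyond 100 per 10000. In set 1 the median replication sum was 16.8 at enterocyte sums of 50 to 100, 8.01 at 100 to 200, 3.74 at 200 to 400 and 2.58 at 400 or more. In set 2 the same bins gave 14.05, 4.85, 2.77 and 2.63. Below 100 the medians hardly differed between bins, lying between 15.1 and 16.9 in set 1 and between 14.05 and 17.7 in set 2. The last bins also held few cells past the G2/M limit used below, 4.76% in set 1 and 1.19% in set 2, against 83.9% and 62.5% at enterocyte sums under 10. Along the enteroendocrine sum the medians were 15.9 and 16.9 at sums under 2, 9.21 and 4.31 at 25 to 50, and 4.51 and 4.41 at 400 or more. The bins between are shallow: cells had medians of 34397 and 32258 UMIs at sums under 2, 2031 and 3218 at 2 to 10, 1491 and 2170 at 10 to 25, and 7194 and 17979 at 25 to 50, and the part of depth was not tested. The bins between 10 and 50 hold 8 to 54 cells per set, and 2 of them in set 2 hold under 20.

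**Figure D2:**
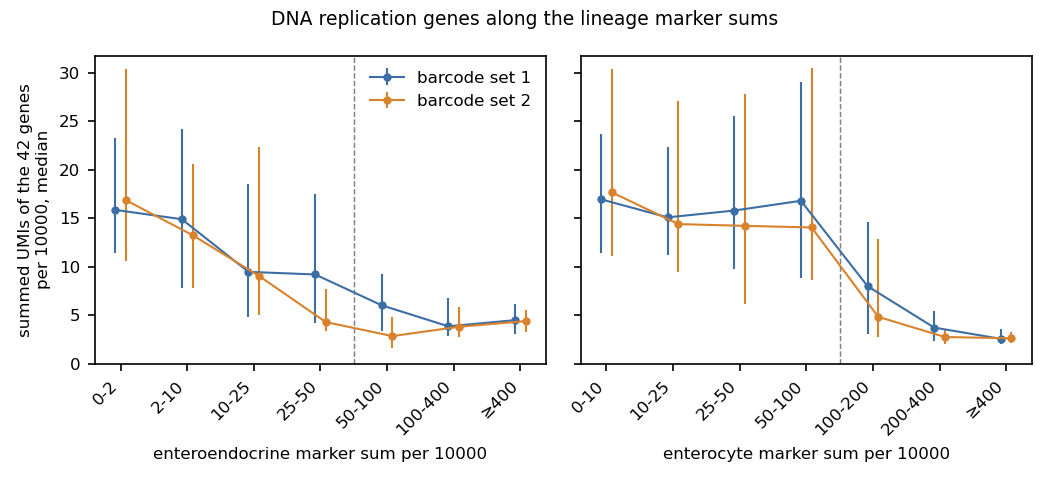
Median summed UMIs of the 42 genes per 10000 (vertical axis) in bins of the enteroendocrine and the enterocyte marker sum per 10000 (horizontal axes). Vertical bars span the quartiles over cells and dashed lines mark the limits of 50 and 100. In set 1 the median goes from 16.8 to 2.58 between enterocyte sums of 50 to 100 and of 400 or more.

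The ungated cells were next divided by the summed UMIs of 18 genes of G2 and mitosis, such as Mki67, Ccnb1 and Plk1, at 10 per 10000 (G2/M-gated cells at or above it). In set 1, 80.3% of ungated cells were G2/M-gated (78.4 to 82.1), and in set 2, 60.9% (58.1 to 63.7). Cells with a replication sum of at least 20 that were not G2/M-gated were 6.59% of ungated cells in set 1 (5.50 to 7.83) and 17.1% in set 2 (15.0 to 19.3). High in both sums were 25.2% and 22.3%. Low in replication and G2/M-gated were 55.2% and 38.7%, and low in both were 13.1% and 22.0%. The largest difference between the sets was in the G2/M-gated cells low in replication, and the next in those high in replication only. The cells low in both sums had medians of 11854 UMIs in set 1 and 23748 in set 2, against 36985 and 38889 in the G2/M-gated cells low in replication, and the part of depth in these shares was not tested.

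The replication sum was highest at G2/M sums of 10 to 20 in set 1 and of 2.5 to 10 in set 2, and lowest under 2.5 in both. In set 1 its median was 9.33 at G2/M sums under 2.5, 16.8 at 5 to 10, 19.1 at 10 to 20 and 15.1 at 40 or more. In set 2 it was 8.79, 28.2, 19.8 and 15.2 in these bins, and 28.7 at 2.5 to 5. Cells of set 2 with G2/M sums of 2.5 to 10 therefore had replication sums well above those of set 1, where the bin of 5 to 10 also had a median of only 6872 UMIs per cell against 27191 in set 2. Along the summed stem markers, such as Lgr5 and Smoc2, the medians in ungated cells lay between 13.996 and 17.0 in set 1 and between 11.2 and 17.7 in set 2, with the lowest value in each set at stem sums under 1.

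**Figure D3:**
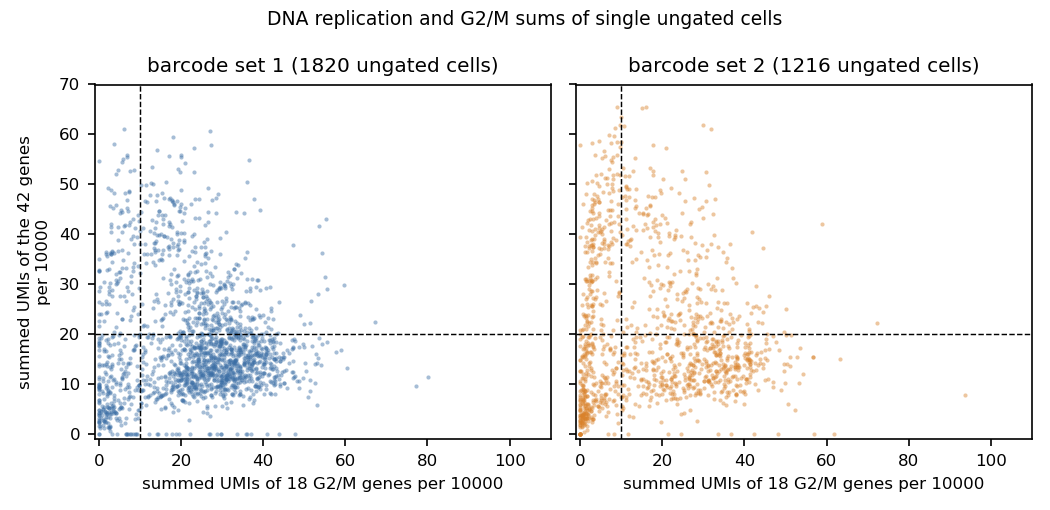
Summed UMIs of the 42 replication genes (vertical axis) against those of 18 G2/M genes (horizontal axis), both per 10000 UMIs, for each ungated cell of set 1 (left, 1820 cells) and set 2 (right, 1216 cells). Dashed lines mark 20 and 10 per 10000. The upper left field holds 120 cells in set 1 and 208 in set 2.

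Single genes separated along this range. UMIs were summed over the cells of a group and scaled to 1000000 UMIs of the group (CPM), and each ratio below is a log2 ratio of CPM + 1, which understates ratios of low genes. In G2/M-gated over other ungated cells, 10 of the 42 genes in set 1 and 9 in set 2 were lower by 2-fold or more, where 3.16% and 0.975% of all genes were, and 0 and 0 were higher by 2-fold, where 1.73% and 1.93% of all genes were. The median over the 42 genes was −0.40 and −0.38, against 0.02 and 0.07 over all genes. The ratios below are those of the kept cells. With no mitochondrial limit 23 of the 42 genes in set 1 and 9 in set 2 had the other sign, and with the mean of each cell's CPM 9 and 4. The gate is a sum of G2/M genes, none of which is among the 42. It is not independent of the module. Over ungated cells the log sums had a Pearson's r of 0.17, and Top2a of the gate had an r of 0.33 with the replication sum.

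The licensing genes had a median of −1.16 in set 1 and −1.12 in set 2 over 9 genes. The 3 genes of entry and exit of S phase were close to this, at −1.16 and −1.09, and the other roles had higher medians. Cdc6, which recruits the helicase to origins, was at 15.1 CPM in other ungated cells and 3.27 in G2/M-gated cells of set 1, and at 21.0 and 6.16 in set 2, log2 ratios of −1.92 and −1.62. Its partner Cdt1 had −1.30 and −1.31. Of the helicase subunits, Mcm2, Mcm3, Mcm4 and Mcm6 were all between −1.09 and −1.26 in both sets. With no mitochondrial limit these 4 lay between −0.14 and 0.09 in set 1, Mcm3 being the one above 0, and between −0.68 and −0.75 in set 2, while Cdc6 was at −0.93 and −0.99 and Cdt1 at −0.17 and −0.97. Mcm5 followed at −0.90 and −0.83, and Mcm7 was the subunit closest to level, at −0.50 and −0.31, from 97.5 to 68.6 CPM and from 103 to 82.7 CPM. Without the mitochondrial limit Mcm5 was at 0.19 and −0.49 and Mcm7 at 0.53 and 0.05. Geminin (Gmnn), the inhibitor of Cdt1 that accumulates from S phase on, went the other way at 0.20 in set 1 and was level at 0.03 in set 2.

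Both cyclins E, which start S phase, were lower in G2/M-gated cells, Ccne1 by −1.16 and −1.09 and Ccne2 by −1.35 and −1.54. Ccne1 turned to 0.07 in set 1 and was at −0.69 in set 2 with no mitochondrial limit, where Ccne2 was at −0.42 and −1.08. Fbxo5 (Emi1), which restrains the anaphase-promoting complex during S phase and G2, was at 0.45 and 0.21, and the intervals of its levels overlapped in set 2. The largest difference of all 42 genes was that of Ung, the uracil-DNA glycosylase that repairs uracil in DNA. It stood at 41.8 CPM (36.6 to 47.4) in other ungated cells of set 1 and at 3.09 (2.60 to 3.64) in G2/M-gated cells, and at 44.8 (41.1 to 48.8) and 5.21 (4.36 to 6.18) in set 2, log2 ratios of −3.39 and −2.88, and of −1.77 and −2.38 with no mitochondrial limit. The other repair and ubiquitin genes stayed between −0.56 and 0.30, so this role has no common direction.

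Fork genes were spread. Pcna, the sliding clamp, was at −0.84 and −0.62 and Rpa2, a subunit of the single-strand binding protein, at −0.69 and −0.41. Both turned in set 1 with no mitochondrial limit, Pcna to 0.12 (−0.22 in set 2) and Rpa2 to 0.39 (−0.07). Cdc45 and Gins2 of the active helicase were at −0.29 and −0.42 and at −0.15 and 0.01. Fen1, the flap nuclease of lagging strand synthesis, was level at −0.01 and 0.14. Pclaf, a small PCNA-binding protein, was the gene with the highest ratio in both sets, 0.86 and 0.86, with 135 CPM (125 to 145) in other and 246 (241 to 250) in G2/M-gated cells of set 1, and 127 (121 to 134) and 232 (226 to 238) in set 2. The nucleotide supply genes leaned the same way, Rrm1 by 0.25 and 0.44 and Tyms by 0.12 and 0.41, while Rrm2 was at −0.28 in set 1 and 0.15 in set 2. Of the chromatin genes, Chaf1b of the histone-depositing complex CAF-1 was at −1.27 and −0.999 and Uhrf1, which binds newly replicated methylated DNA, at −0.86 and −0.88, while the histone chaperone Nasp was at −0.24 and −0.26. These 3 chromatin genes were at −0.12 and −0.58, 0.22 and −0.47, and 0.74 and 0.07 in the same order with no mitochondrial limit.

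Finer steps are given for a few genes, and not every gene kept its direction. Rrm2, lower in G2/M-gated cells of set 1, was there at 62.9 CPM at G2/M sums under 5 and at 68.1 at 30 or more. At G2/M sums under 5, of 5 to 20, of 20 to 30 and of 30 or more, Ung was at 43.4, 13.8, 2.41 and 2.24 CPM in set 1 and at 42.7, 25.6, 3.26 and 2.60 in set 2. Ccne2 held its level into the second step in both sets, with 10.6, 11.4, 4.06 and 2.09 CPM and 16.6, 19.3, 5.35 and 2.89. Mcm6 was at 80.6, 71.9, 36.0 and 25.4 CPM in set 1 and 87.5, 86.8, 38.4 and 29.1 in set 2. Ung was thus already lower in the second step, where Ccne2 and Mcm6 were near their first level. The level of Pclaf differed mainly between the first steps, with 76.0 and 280.4 CPM in set 1 and 73.7 and 244.9 in set 2, and was at 235.4 and 221.9 in the last. As a share of the module, Pclaf took 4.11% of the replication UMIs in the first step and 14.6% in the last in set 1, and 3.57% and 13.2% in set 2. Licensing genes took 25.7% and 17.8% in set 1 and 26.6% and 17.8% in set 2. The proportions of the genes within the pooled replication UMIs thus differed between these steps.

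**Figure D4:**
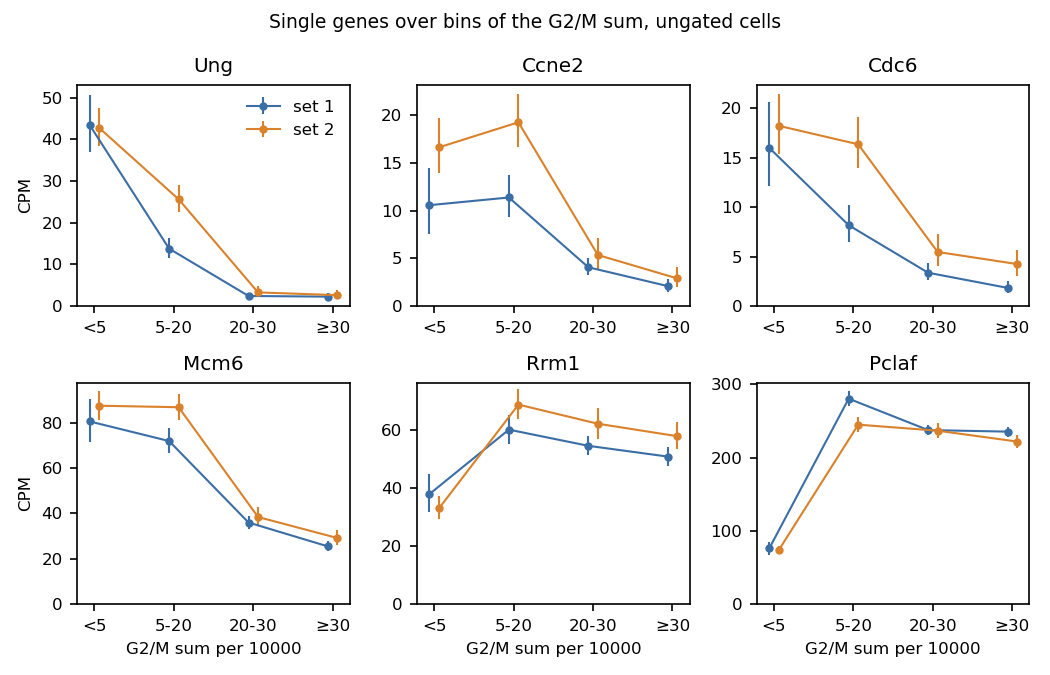
CPM of 6 replication genes (vertical axes, from 0) in ungated cells over bins of the G2/M sum per 10000 (horizontal axes), for both barcode sets. Bars are exact 95% Poisson intervals. Ung goes from 43.4 to 2.24 CPM in set 1 and Pclaf from 76.0 to 235.4.

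Among 42 other replication genes that the module leaves out, 1 was higher and 1 lower by 2-fold in G2/M-gated cells of set 1, and 1 and 0 in set 2. Of all genes, 1.73% were higher and 3.16% lower in set 1, and 1.93% and 0.975% in set 2. The higher gene was Dbf4, the activator of the Cdc7 kinase that fires origins, at 1.64 and 1.55, and the lower one Donson at −1.05 in set 1. Of 22 regulators of cell cycle entry, E2f1, a driver of S phase genes, was at 22.1 CPM in other and 4.88 in G2/M-gated cells of set 1 and at 29.3 and 9.24 in set 2, log2 ratios of −1.97 and −1.56. Ccna2, the cyclin of S phase and G2, was at 2.62 and 2.43. These counts of single genes rest on pooled UMIs, in which deep cells weigh most. With the mean of each cell's CPM in place of the pooled value, 2 of the 42 genes in set 1 and 3 in set 2 were lower by 2-fold, where 6.65% and 2.03% of all genes were. The median over the 42 genes was then −0.03 in set 1, with 20 genes above 0, and −0.16 in set 2, with 14 above 0. With no mitochondrial limit, 1 and 2 were lower by 2-fold, where 1.2% and 0.812% of all genes were, and 6 and 1 were higher, where 7.98% and 2.04% were. The median was then 0.53 in set 1 and −0.07 in set 2, against 0.43 and 0.18 over all genes. The lower level of the 42 genes as a group in G2/M-gated cells therefore does not hold in set 1 under either setting.

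In enteroendocrine-gated cells the module was low with some exceptions. Over ungated cells, 32 of the 42 genes were lower by 2-fold or more in set 1 and 38 in set 2, where 9.19% and 11.5% of all genes were, and 0 and 0 were higher by 2-fold, where 30.8% and 28.3% were. The median ratio was −1.82 and −2.39, while the median over all genes was 0.43 and 0.36, so the 42 genes lay further from the median gene than from 0. Lowest were Mcm3, at 39.2 CPM in ungated and 2.14 in enteroendocrine-gated cells of set 1 and at 52.4 and 2.24 in set 2 (−3.68 and −4.04), and Pclaf, from 233 to 17.4 and from 199 to 14.03 (−3.67 and −3.73). Licensing genes had medians of −2.39 and −3.04. Slbp, which binds the stem-loop of replicative histone mRNA, was at −0.15 and −0.66, and Pold3, a subunit of polymerase delta, at −0.25 and −0.69, with intervals that overlapped those of ungated cells in set 1 and lay below them in set 2. Ung and Ccne2 had overlapping intervals in set 1 as well, Ung at 7.39 CPM (6.67 to 8.17) in ungated and 6.12 (3.74 to 9.45) in enteroendocrine-gated cells and Ccne2 at 5.15 (4.55 to 5.81) and 3.06 (1.47 to 5.63), log2 ratios of −0.24 and −0.60.

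Pola1, the catalytic subunit of the polymerase that starts each new strand, was the only one of the 42 genes above the ungated level. It was at 15.5 CPM (14.4 to 16.6) in ungated and 24.2 (19.1 to 30.1) in enteroendocrine-gated cells of set 1, and at 18.2 (16.9 to 19.7) and 26.9 (21.8 to 32.9) in set 2, log2 ratios of 0.61 and 0.54. Prim1, which makes the primer in the same complex, was at −2.14 and −2.47, so the subunits of this complex did not share a level.

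The ratio among the 42 genes also differed between gated and ungated cells. In set 1, Slbp was at 74.4 CPM and Mcm3 at 2.14 in enteroendocrine-gated cells, against 82.7 and 39.2 in ungated cells. RNA free in the droplets was not measured, and its part in these levels was not tested. Of the other replication genes, 27 of 42 in set 1 and 31 in set 2 were lower by 2-fold, with Orc4, a subunit of the origin recognition complex, above the ungated level at 0.76 and 0.65. Of the 22 regulators, 4 were higher and 4 lower by 2-fold in set 1 and 3 higher and 7 lower in set 2. Of all genes, 30.8% and 28.3% were higher and 9.19% and 11.5% lower. The share of higher regulators was thus below that of all genes. All 3 inhibitors of cyclin-dependent kinases in the list were among those higher in both sets, Cdkn1b at 158.8 against 48.0 CPM and at 105.2 against 37.2, Cdkn1c at 97.6 against 7.39 CPM and at 168.9 against 5.39, Cdkn1a at 374.0 against 66.8 and at 324.1 against 89.2. Ccnd1, the cyclin of G1, was lower by −2.53 and −3.01. Only 6 and 5 of these cells were past the G2/M limit.

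In enterocyte-gated cells, 24 of the 42 genes were lower by 2-fold or more than in ungated cells of set 1 and 41 in set 2, where 10.6% and 15.9% of all genes were, and 0 and 0 were higher, where 8.56% and 9.46% were. The medians were −1.06 and −2.48, against −0.19 and −0.21 over all genes. With gate limits halved, 4 of the 42 were lower by 2-fold in set 1, where 3.86% of all genes were, with a median of −0.52, and with a pseudocount of 10 CPM 9 were, where 2.7% of all genes were. In set 1 the lowest were Cdca7, from 79.2 to 17.7 CPM (−2.10), and Tipin of the fork protection complex, from 51.2 to 14.5 (−1.75), and in set 2 Dtl, which marks Cdt1 for destruction in S phase, from 27.7 to 1.86 (−3.33). Pcna was closest to the ungated level, at 51.8 and 53.5 CPM in set 1 (0.05) and at 70.1 and 48.1 in set 2 (−0.53). The mouse genome holds pseudogenes of Pcna, of Nasp and of Tyms, and how reads shared with them were counted is not given in the sources used here. Ung, Ccne1, Ccne2 and Cdc6 had overlapping intervals in set 1, between −0.05 and −0.69.

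G2/M-gated cells were 17.9% of the enterocyte-gated cells in set 1 and 6.98% in set 2. Without them, 30 and 41 of the 42 genes were lower by 2-fold (15.5% and 18.3% of all genes), with medians of −1.51 and −3.03 and Pcna at 0.00 and −0.58. Enterocyte-gated cells also differed in mitochondrial RNA: at a limit of 10% only 23 and 24 of them were left, with mean replication sums of 11.6 and 10.5, and 3 and 17 of the 42 genes lower by 2-fold (9.25% and 12.6% of all genes). In the other replication genes 24 and 37 of 42 were lower by 2-fold with all enterocyte-gated cells, and of the 22 regulators 8 were lower and 2 higher in set 1 and 12 lower and 1 higher in set 2. Of all genes, 10.6% and 15.9% were lower and 8.56% and 9.46% higher. Cdkn1a was at 155.0 against 66.8 CPM in set 1 and at 158.3 against 89.2 in set 2.

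**Figure D5:**
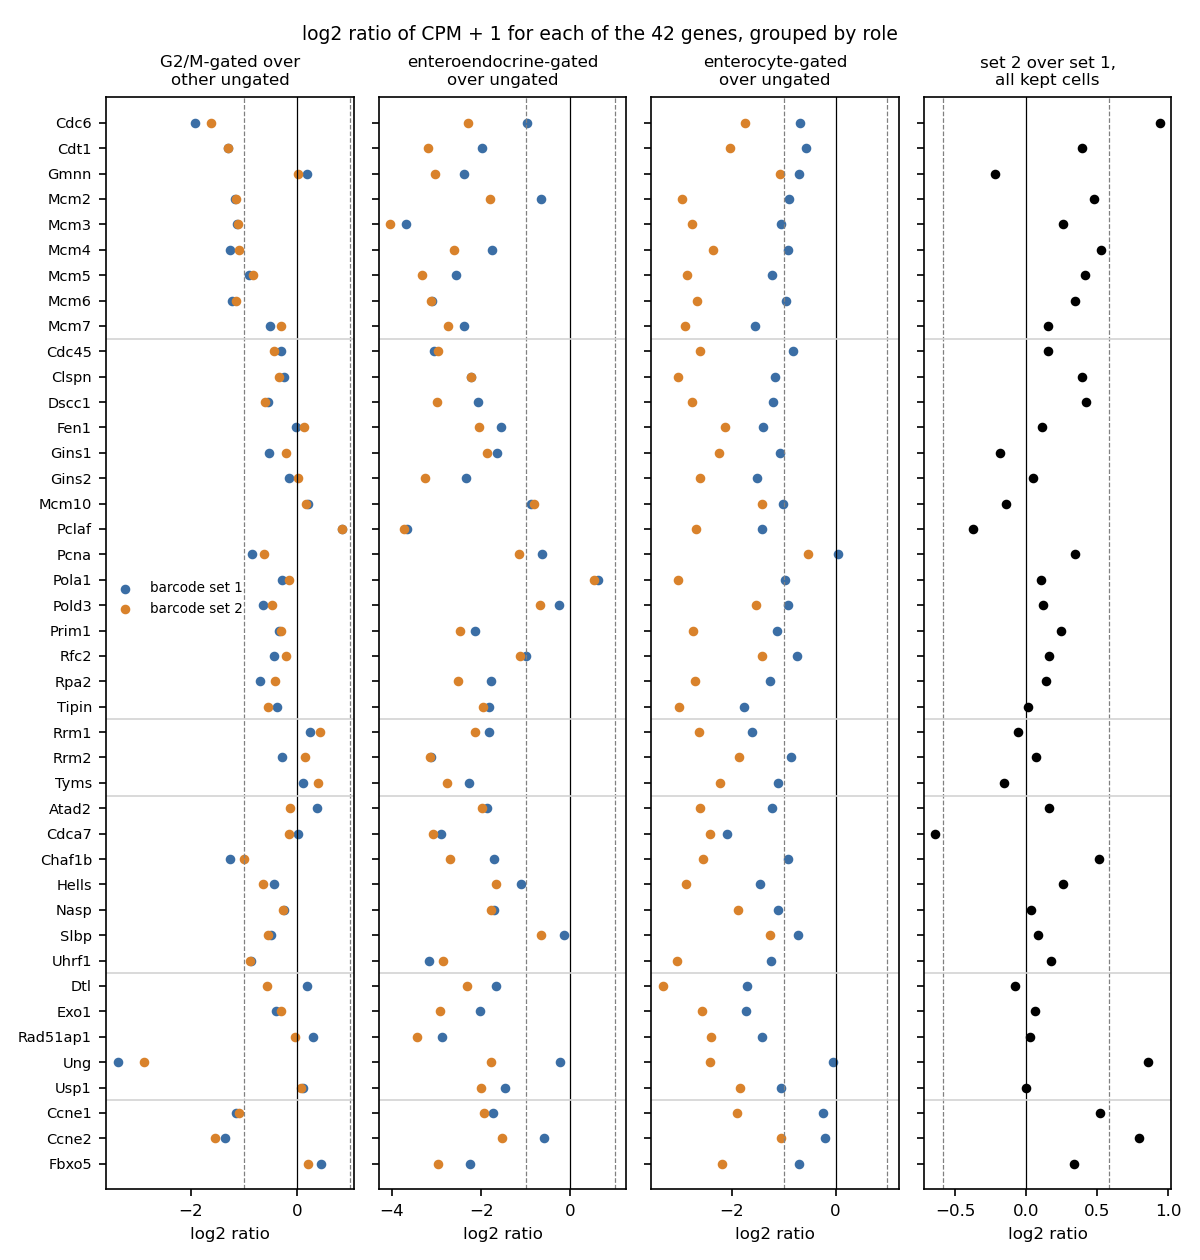
Log2 ratio of CPM + 1 (horizontal axes) for each of the 42 genes, grouped from top to bottom by licensing, firing and fork, nucleotide supply, chromatin and histones, repair and ubiquitin, and entry to and exit from S phase. Panels show G2/M-gated over other ungated cells, enteroendocrine-gated and enterocyte-gated over ungated cells in each set, and set 2 over set 1 over all kept cells. Dashed lines mark 2-fold in the first 3 panels and 1.5-fold in the last, where Cdc6 at 0.94 and Cdca7 at −0.64 are the ends.

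Between the barcode sets the sum of the module over all kept cells was close, while ungated cells had means of 18.5 in set 1 and 20.8 in set 2. The mean sum over all kept cells was 15.98 ± 11.7 (SD over cells) in set 1 and 16.3 ± 14.5 in set 2, with medians of 13.6 and 12.05, so that mean and median point to different sets. Of the 42 genes, 3 were higher by 1.5-fold or more in set 2, where 2.46% of 15474 genes were, and 1 was lower, where 1.4% were. With no mitochondrial limit 7 were higher and 0 lower (2.69% and 0.807% of all genes), and with a pseudocount of 10 CPM 0 and 0 (0.788% and 0.233%). The median ratio was 0.15, against 0.03 over all genes. The Poisson intervals of the levels lay apart for 22 genes higher in set 2, where 20.9% of all genes were, and for 4 lower, where 12.2% were. The share of higher genes was thus above that of all genes, and the share of lower genes was near it.

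The 3 higher genes were Cdc6, Ung and Ccne2, and no common function is read from genes picked by this limit. Cdc6 was at 4.20 CPM (3.71 to 4.75) in set 1 and 9.0 (8.20 to 9.86) in set 2, a log2 ratio of 0.94. Ung was at 7.32 (6.66 to 8.03) and 14.1 (13.1 to 15.1), a ratio of 0.86. Ccne2 was at 4.87 (4.33 to 5.45) and 9.16 (8.35 to 10.0), a ratio of 0.79. These 3 were also the lowest of the 42 in G2/M-gated cells of both sets. Ccne1 (0.52), Mcm4 (0.53) and Chaf1b (0.51) came next, within 1.5-fold. Licensing genes had a median of 0.40, and 8 of the 9 were higher with intervals apart, Gmnn being lower at −0.22. Nucleotide supply genes had a median of −0.06.

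Lower in set 2 were Cdca7, which activates the chromatin remodeller Hells, at 69.2 CPM (67.2 to 71.3) and 44.1 (42.3 to 45.9), a ratio of −0.64, and within 1.5-fold Pclaf at 207 and 159 CPM (−0.38), Gmnn, and Tyms at −0.15. Hells itself was higher, at 62.6 and 75.1 CPM (0.26), so the partners differed in direction. Of the other replication genes, 0 of 42 passed 1.5-fold either way, and 10 higher and 6 lower had intervals apart, shares near those of all genes. Of the regulators E2f1 alone passed it, at 6.93 and 13.5 CPM (0.87).

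The sets hold different shares of G2/M-gated cells, and so the ratios were taken again within steps of the G2/M sum in ungated cells. Cdca7 was lower in set 2 in all 4 steps, at −0.38, −0.57, −0.59 and −0.54, with intervals apart in each. Ung was level in the first step at −0.02 and reached 0.85 in the second, 0.32 in the third and 0.15 in the last. Cdc6 was at 0.18, 0.92, 0.57 and 0.89, and Ccne2 at 0.61, 0.71, 0.33 and 0.33. The intervals lay apart for Cdc6 in the second and last steps and for Ung and Ccne2 in the second only. Pclaf stayed between −0.19 and −0.01, against −0.38 over all kept cells, and in ungated cells before any division into steps it was at 233 and 199 CPM. Past 1.5-fold higher were 4, 7, 0 and 2 of the 42 genes in the 4 steps, where 4.08%, 3.58%, 3.48% and 2.77% of all genes were, and lower 0, 0, 1 and 0, where 9.65%, 3.73%, 2.76% and 3.13% were. The median over the 42 genes was 0.16, 0.23, 0.19 and 0.17 in the 4 steps, against −0.01, 0.05, 0.08 and 0.05 over all genes.

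Within ungated cells, each gene's log level followed the sum of the others to a different degree. Pearson's r over 3036 cells, which share library, depth and scaling, was highest for Rrm2 (0.53), Pclaf (0.47), Mcm7 (0.46) and Mcm6 (0.46), and lowest for Pold3 (0.19), Mcm10 (0.21), Gins1 (0.25) and Cdca7 (0.25). The order differed between the sets: in set 1 the lowest were Mcm10 (0.13), Pold3 (0.13), Cdc6 (0.15) and Ccne2 (0.19), and in set 2 Gins1 (0.25), Pold3 (0.28), Cdca7 (0.29) and Mcm10 (0.31). These values are limited by sparse counts, since Cdc6 had a UMI in 14.5% of ungated cells and Nasp in 83.9%. With the G2/M sum, Pclaf had the highest r, 0.37, and Ung the lowest, −0.31. Among 4790 genes outside the module, those with the highest r with the replication sum included Lig1 (0.50), Dut (0.49), Dek (0.46), Dnajc9 (0.42), Stmn1 (0.42), Tk1 (0.41), Slfn9 (0.41), Ranbp1 (0.40) and Siva1 (0.40). Lig1 (DNA ligase), Dut (dUTPase, which removes dUTP from the nucleotide pool) and Tk1 (thymidine kinase) are in the list of other replication genes, which had 23 genes among the 4790. The median r over all genes was 0.07, and the sum's r with the log UMI total of a cell was 0.22.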

How the data were processed

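Droplet-based 3′ libraries (Chromium version 3 chemistry, per the labels) were sequenced on an Illumina NovaSeq instrument. Per the submitters' processing notes, bcl2fastq 2.20.0, Cell Ranger 3.1.0 and STAR 2.7.3a were used, with no roles given. The genome build is not given in the sources used here. The deposited values are UMI counts per gene and barcode, whole numbers made by the authors and not normalized. The 2 samples' files were identical, so they were handled as 1 sample with 2 barcode sets, and the count test planned for replicated groups was not run.

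From there, counts were summed per cell or group and scaled per 10000 UMIs or as CPM with Python 3.11.15, numpy 2.4.6, scipy 1.17.1 and pandas 2.3.3. Ratios used genes with at least 10 UMIs and a pseudocount of 1 CPM. The scaling and intervals were tested on simulated counts. The 42 genes, their roles, the other lists and the comparisons were chosen with earlier results of these data known, and the limits of the gates after seeing the marker sums. Other genes are named from the 10 with the highest r, from the 2 other lists, or where the text says so, and some of them are not reported here. Alternatives were other limits for mitochondrial UMIs, gates, pseudocounts and filters, thinning, the sum without Pclaf, mean CPM per cell, and leaving out the 5% of cells with most UMIs or barcode sequences found with both endings. Leaving G2/M-gated cells out of the enterocyte-gated ones was added after seeing the data. No barcode set was left out in turn, since each side would then be empty.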

Additional observations from a re-analysis of the deposited data

Results flagged for a closer look

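Barcodes over the mitochondrial limit also held UMIs of the replication genes. Per 10000 non-mitochondrial UMIs, the 42 genes had 19.3 (set 1, 2467 barcodes) and 22.4 (set 2, 1886 barcodes) with over 20% to 50% mitochondrial UMIs, and 17.7 in 3643 and 19.6 in 1785 barcodes above 50%, against 18.8 and 19.5 in the kept cells. These barcodes lie outside the kept cells and enter only the values given with no mitochondrial limit. No background level was measured, so they do not show that these barcodes express the genes. The barcodes are shallow, with medians of 1295 to 3315 non-mitochondrial UMIs.

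Rrm2, the small subunit of ribonucleotide reductase, had opposite signs in the sets. Its log2 ratio in G2/M-gated over other ungated cells was −0.28 in set 1 and 0.15 in set 2, and the difference was not tested. With no mitochondrial limit both were above 0, at 0.76 and 0.50, and so were both with the mean of each cell's CPM, at 0.06 and 0.42.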

How the results depend on the processing

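Of 3234 ratios of the 42 genes under alternatives, 99 had the other sign, 23 of them in G2/M-gated cells of set 1 with no mitochondrial limit. Other pseudocounts and low-count filters cannot turn a sign. This count and the next therefore hold ratios that kept their sign by construction. For 55 ratios picked as the highest and lowest of a comparison or past its fold, 590 of 605 values kept their sign, 155 moved by more than their counting error with no called ratio turned, and 3 called ratios reversed: Ccne2 in enterocyte-gated cells of set 2 at a 10% mitochondrial limit (0.0562), and Mcm3 (0.0871) and Ccne1 (0.0730) in G2/M-gated cells of set 1 with no limit. In the following, values are set 1 then set 2. At the 10% limit the mean replication sum was 16.5 and 17.1 over all cells, 19.3 and 21.2 in ungated and 11.6 and 10.5 in enterocyte-gated cells, with 3 and 17 genes lower by 2-fold in the last (9.25% and 12.6% of all genes). With no mitochondrial limit these means were 10.3 and 12.8, 10.7 and 14, and 5.37 and 3.75, that of enteroendocrine-gated cells of set 2 was 4.71, the shares at 20 or more were 12.1% and 19.6%, 7 genes were higher and 0 lower by 1.5-fold in set 2 (2.69% and 0.807% of all genes), and in G2/M-gated cells 6 and 1 were higher (7.98% and 2.04%) and 1 and 2 lower by 2-fold (1.2% and 0.812%). Mitochondrial UMIs are part of each cell's total, so sums per 10000 are smaller there by construction. Without Pclaf the means were 14.1 and 15.0 over all cells, 16.3 and 19 in ungated and 6.49 and 4.13 in enterocyte-gated cells, and the shares 20.4% and 25.8%. Thinning gave shares of 35.7% and 35.5%. Without the 5% of cells with most UMIs, enterocyte-gated means were 6.68 and 4.18. Doubled gate limits gave 18.1 and 20.01 in ungated, 5.11 and 3.41 in enterocyte-gated and 4.72 in enteroendocrine-gated cells of set 1. Halved limits gave 18.8 and 21.3, 12.5 and 7.55, and 6.38 and 4.93 in these classes, 4 genes lower in enterocyte-gated cells of set 1 (3.86% of all genes), and, in G2/M-gated cells, 1 higher in each set (2.91% and 2.75%) and 3 lower in set 2 (0.297%). A pseudocount of 10 CPM, which shrinks low genes by construction, left 0 higher and 0 lower past 1.5-fold between the sets (0.788% and 0.233% of all genes), 9 lower in enterocyte-gated cells of set 1 (2.7%) and 2 and 2 lower in G2/M-gated cells (0.481% and 0.117%). The mean of each cell's CPM left 2 and 3 lower (6.65% and 2.03%) and 1 and 1 higher (2.41% and 2.47%) there. Among genes with a mean of at least 10 CPM, 1 was higher by 1.5-fold in set 2. Cdc6 and Ccne2 lay below 10 CPM in both sets and dropped out by this filter, with their ratios unchanged. Apart from the sums per 10000 with no mitochondrial limit, the pseudocount of 10 CPM and the filter of 10 CPM, the cause of these shifts was not tested. The other 158 summary values stayed within their limits. No paired analysis was possible because both samples hold the same matrix and the result comes from no test. Without replicates, counting error is a lower limit of the error of every value.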
